A study of Mus musculus with 6 samples.

Results

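Chromatin regions that carried H3K9Ace, an acetylated form of histone H3, in both macrophages and adipocytes, and that held no region of any of the transcription factors mapped in the study, are described here. They were selected by the deposited region lists: autosomal H3K9Ace regions of macrophages, narrower than 5000 bp, that overlap an adipocyte H3K9Ace region by at least 1 bp and overlap no region of 4 factor lists. These 4 lists are macrophage PU.1, macrophage C/EBPβ, the longer list of macrophage PPARγ and the combined list of adipocyte PPARγ. The rule left 7154 regions of the 37263 in the macrophage H3K9Ace list. Below they are called factor-free common regions, and the 10139 regions that meet the rest of the rule but overlap at least 1 factor region are called factor-bearing common regions.

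Both H3K9Ace libraries were made by chromatin immunoprecipitation and sequencing (ChIP-seq). The macrophages were washed from the peritoneal cavity of C57BL/6 males. The mice had received 1 ml of 3% thioglycollate, an irritant that recruits inflammatory cells, 3 days earlier, the cells adhered for 24 h, and at least 4 animals went into each sequencing run. The adipocytes were differentiated from 3T3-L1, a single mouse preadipocyte line, so they stand for 1 culture model and not for fat tissue. The labels name no transgene and no drug. Chromatin was taken from whole-cell lysates of macrophages and nuclear lysates of adipocytes, so cell type and lysate cannot be told apart. Each group is 1 library, so no value has a replicate, no test over samples exists, and the 95% intervals given with shares (Wilson) and medians (order statistics) cover counting error over regions only. The lists hold positions and no expression values, so the cell labels were not checked against marker genes.

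H3K9 acetylation is a mark that histone acetyltransferases place on nucleosomes at the promoters of active genes and at active enhancers, where it is associated with accessible chromatin. PU.1 is an ETS-family factor that opens myeloid enhancers, C/EBPβ is a leucine-zipper factor of both myeloid cells and differentiating adipocytes, and PPARγ is the nuclear receptor that drives fat cell differentiation. Promoters of broadly used genes are a well-known class of chromatin that is acetylated in many cell types. The gene tables used here are of another genome build than the region lists, which are in mm8, so no region was assigned to a gene, a promoter or an enhancer, and no sequence is shown.

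The rule itself removed regions in steps that differ between the lists. Of the 36209 autosomal macrophage H3K9Ace regions narrower than 5000 bp, 17293 overlapped an adipocyte region, 47.8%. Among these, 41.4% (95% interval 40.6 to 42.1) had none of the 4 factors, against 59.2% (58.5 to 59.9) of the 18916 regions without adipocyte acetylation. PU.1 removed most: it lay at 41.0% of the common regions, C/EBPβ at 29.9%, macrophage PPARγ at 18.2% and adipocyte PPARγ at 13.0%. No factor-free common region overlapped a region of the final PPARγ lists or a masked interval either. PU.1 and C/EBPβ were mapped in macrophages only, so the absence of these factors in adipocytes is not known. These shares are what the rule selects on and are given as a description.

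At a typical factor-free common region a short stretch of acetylated chromatin in macrophages lay inside a longer one in adipocytes. The macrophage region had a median width of 1050 bp (1050 to 1100), with quartiles of 750 and 1700 bp. The adipocyte region of largest overlap had a median of 2900 bp (2850 to 3000), with quartiles of 1400 and 5050 bp. The median difference at the same place, macrophage minus adipocyte, was -1350 bp (-1400 to -1300). The adipocyte region was the wider one at 6020 of the 7154 regions, 84.1% (83.3 to 85.0), against a background of 80.2% of all common regions. The widths were equal at 145 and the macrophage region was wider at 989. In 4569 cases, 63.9%, the macrophage region lay wholly inside its adipocyte region, close to the 62.9% of all common regions.

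Large differences ran mostly in this direction. The adipocyte region was at least 2 times as wide at 50.6% of factor-free common regions (49.4 to 51.8), against 35.8% of factor-bearing ones (34.9 to 36.8) and 41.9% of all common regions. It was at least 4 times as wide at 28.7% of factor-free and 14.6% of factor-bearing common regions, with a background of 20.4%. Conversely, the macrophage region was at least 2 times as wide at 2.10% of factor-free common regions (1.79 to 2.46) and 6.16% of factor-bearing ones (5.71 to 6.65), with a background of 4.48%. These ratios depend on macrophage width, which was lower at factor-free regions. No region of either list is under 500 bp, so a macrophage region under 1000 bp cannot be at least 2 times as wide as its partner. Macrophage widths of 500 to 700 and 750 to 950 bp made up 24.35% and 17.95% of factor-free regions. At factor-bearing regions they made up 5.86% and 6.75%. The share with the macrophage region at least 2 times as wide is thus in part built in, and was not taken within strata. The share with an adipocyte region at least 2 times as wide was also taken in 6 strata of macrophage width. From narrow to wide it was 70.0%, 57.2%, 49.2%, 39.0%, 29.5% and 23.8% at factor-free regions. At factor-bearing regions it was 66.5%, 55.7%, 42.9%, 33.1%, 30.3% and 21.3%. The classes thus differed less within each stratum than in the pooled share. Summed up, the factor-free common regions covered 9.23 Mb in macrophages, and the 6766 adipocyte regions that overlap them covered 24.9 Mb. The shared part was 8.30 Mb, which is 89.9% of the macrophage length and 33.3% of the adipocyte length.

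**Figure D1:**
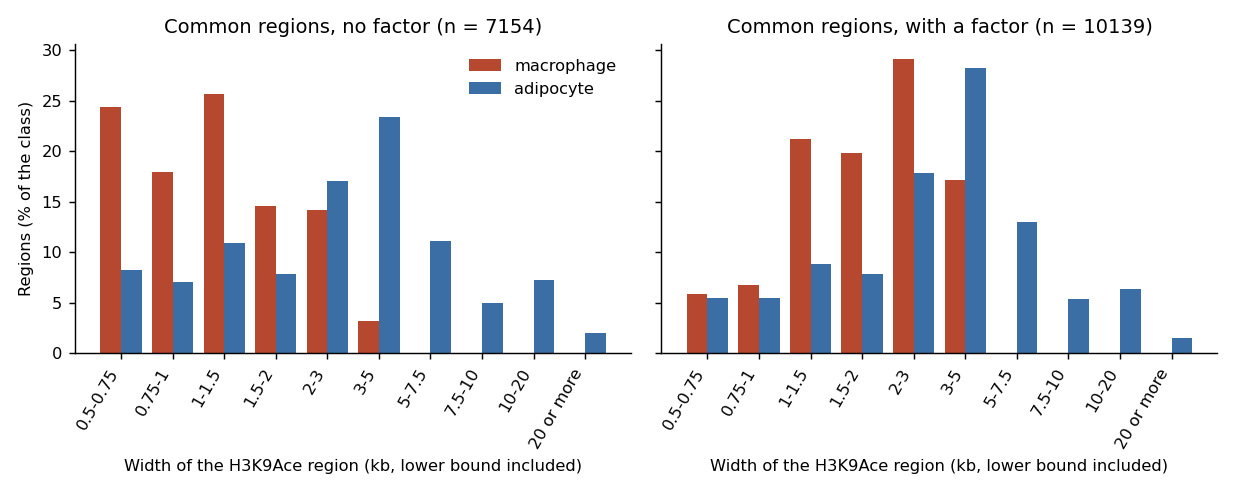
Share of regions (%) by width of the H3K9Ace region (kb) in macrophages and in the overlapping adipocyte region, for 7154 factor-free (left) and 10139 factor-bearing (right) common regions. Width classes are unequal. The macrophage bars of factor-free regions are highest at 0.5 to 1.5 kb and end at the 5000-bp limit of the rule, while the adipocyte bars peak at 3 to 5 kb and reach past 20 kb.

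The size of this difference depended on the list from which it was viewed, a comparison added after the values were seen. A wide region is met by overlap more often than a narrow one, and the width limit applies to the macrophage side alone. With the lists exchanged, 5251 adipocyte regions narrower than 5000 bp overlapped a macrophage region and no factor. At these the median width was 1250 bp in macrophages and 1550 bp in adipocytes, the median difference was -350 bp, and the adipocyte region was the wider one at 64.0% (62.7 to 65.3). In one-to-one pairs alone, where each region overlaps a single region of the other list, the median difference was -750 bp (-800 to -700). With both regions under 5000 bp and both free of factors, 4497 regions stayed, with a median difference of -550 bp and a wider adipocyte region at 75.5%. The direction was thus the same from both sides, and the amount was not. The whole lists differ in their upper part: autosomal macrophage regions have a median of 1050 bp and an upper quartile of 1750 bp, and autosomal adipocyte regions have 1000 bp and 2300 bp. The sequencing depth of both libraries is unknown.

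Factor-free common regions were narrower in macrophages than factor-bearing ones, with a median of 1050 against 1900 bp. This follows in part from the rule, because a wider region has more room for a factor region, so it is a description. The adipocyte regions at the same places differed less, with medians of 2900 bp and 3200 bp (3150 to 3250). Within each of 6 strata of macrophage width the order was the other way round, with the higher adipocyte median at the factor-free regions. At macrophage widths of 500 to 700 bp the adipocyte median was 2500 bp (2250 to 2700) at the 1742 factor-free regions and 2000 bp (1750 to 2250) at the 594 factor-bearing ones. From 1000 to 1450 bp the medians were 2300 bp (2200 to 2400) at factor-free and 2100 bp (2000 to 2200) at factor-bearing regions. At 750 to 950 bp they were 2200 bp (2000 to 2500) at factor-free and 2050 bp (1800 to 2350) at factor-bearing regions, with intervals that overlap. From 1500 to 1950 bp they were 2900 bp (2800 to 3050) at factor-free and 2650 bp (2550 to 2750) at factor-bearing regions, with intervals that do not. Between 2000 and 2950 bp they were 3750 bp (3650 to 3850) at factor-free and 3700 bp (3600 to 3750) at factor-bearing regions, with intervals that overlap. In the widest stratum, 3000 to 4950 bp, they were 4800 bp (4400 to 5350) at 227 factor-free regions and 4600 bp (4450 to 4750) at 1743 factor-bearing ones, again with overlap. One-to-one pairs alone did not show this order at the narrow end. At 500 to 700 bp their adipocyte medians were 1150 bp at factor-free and 1200 bp at factor-bearing regions. At 750 to 950 bp they were 1150 and 1250 bp. In the wider strata the factor-free median was the higher one in these pairs too, such as 1850 against 1650 bp at 1000 to 1450 bp.

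**Figure D2:**
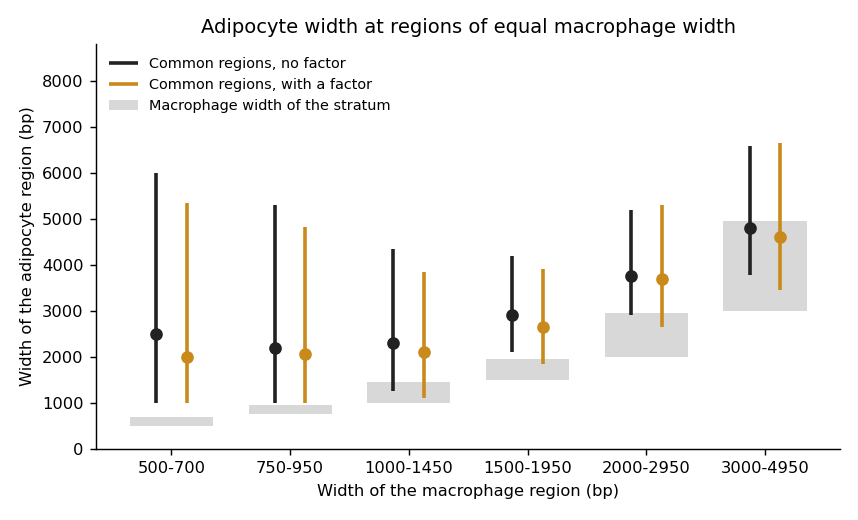
Width of the overlapping adipocyte region (bp; dot, median; line, lower to upper quartile) at common regions in the same stratum of macrophage width (bp; grey, the width range of the stratum), factor-free and factor-bearing. The adipocyte median is 2500 bp at the narrowest and 2200 bp at the next factor-free stratum and climbs to 4800 bp at the widest, and the factor-bearing medians lie close below it.

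The share with a wider adipocyte region did not follow macrophage width in 1 direction. It was 91.6% at factor-free regions of 500 to 700 bp (90.2 to 92.8), 76.4% at 1000 to 1450 bp (74.4 to 78.3), 89.2% at 2000 to 2950 bp (87.1 to 90.9) and 82.4% at 3000 to 4950 bp (76.9 to 86.8). Regions of 500 bp are the narrowest in either list, so a partner of the narrowest macrophage regions can hardly be narrower. At factor-bearing regions of 2000 to 2950 bp the share was 80.6% (79.1 to 82.0), and at 3000 to 4950 bp it was 71.9% (69.7 to 73.9). Wide factor-bearing regions thus had the wider region in adipocytes less often than factor-free regions of the same width range, with intervals that do not overlap at either width. Widths are not matched within a stratum: 23 factor-free and 430 factor-bearing regions were 4000 bp or wider. Regions of middle width differed in the same direction, again with intervals that do not overlap. At 1000 to 1450 bp the factor-bearing share was 71.8% (69.8 to 73.6). At 1500 to 1950 bp the shares were 85.5% of factor-free (83.2 to 87.5) and 78.0% of factor-bearing regions (76.1 to 79.7). The narrowest strata showed no such difference. At 500 to 700 bp the factor-bearing share was 92.4% (90.0 to 94.3). At 750 to 950 bp the shares were 80.4% of factor-free and 81.1% of factor-bearing regions.

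At most places 1 macrophage region met 1 adipocyte region. Such one-to-one pairs made up 4849 of the factor-free common regions, 67.8% (66.7 to 68.9), against 71.7% (70.8 to 72.5) of the factor-bearing ones and 70.1% of all common regions. In the pairs the median width was 1100 bp in macrophages and 2150 bp in adipocytes, and the adipocyte region was wider in 79.9%, against 76.7% of all common pairs. The other places split in an uneven way. At 2085 factor-free regions, 29.1% (28.1 to 30.2), the adipocyte region also overlapped another macrophage region, against 26.0% of all common regions, and at 785 of them, 11.0% of the factor-free regions, it overlapped 3 or more, against 9.59% of all common regions. Only 257, 3.59% (3.19 to 4.05), overlapped 2 or more adipocyte regions, against 5.11% (4.70 to 5.55) of the factor-bearing ones and 4.48% of all common regions. The adipocyte regions that such a macrophage region joins had a median gap of 200 bp, against 300 bp at factor-bearing regions. A gap of this kind has to fit inside the macrophage region, so it is short by construction.

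Edges were compared in the one-to-one pairs, as macrophage minus adipocyte position along the chromosome. All edges of both lists lie on a 50-bp grid, so shifts are multiples of that step. The left edge of the macrophage region lay 350 bp to the right of the adipocyte edge in the median (300 to 350), and the right edge lay -300 bp from it (-350 to -300), which is inward on both sides. The median size of a shift, whatever its direction, was 400 bp. The adipocyte region reached further on both sides in 2590 pairs, 53.4% (52.0 to 54.8), with 53.4% as the background too. The macrophage region reached further on both sides in 244 pairs, 5.03% (4.45 to 5.68), against 11.2% (10.5 to 11.9) of factor-bearing pairs and 8.72% of all pairs. In 1582 pairs, 32.6% (31.3 to 34.0), the regions were offset, each reaching further on 1 side, against 26.9% (25.8 to 27.9) of factor-bearing pairs and 29.2% of all pairs. The macrophage regions of these pairs had a median width of 1100 bp in the factor-free and 1850 bp in the factor-bearing class. A narrower region has less room to reach past its partner on both sides. The edge classes were not compared at equal macrophage width, so their differences between the classes are a description. Along the chromosome the offset was nearly even: the macrophage region lay to the right in 796 pairs and to the left in 786. No region was assigned to a gene, so direction relative to transcription was not tested.

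**Figure D3:**
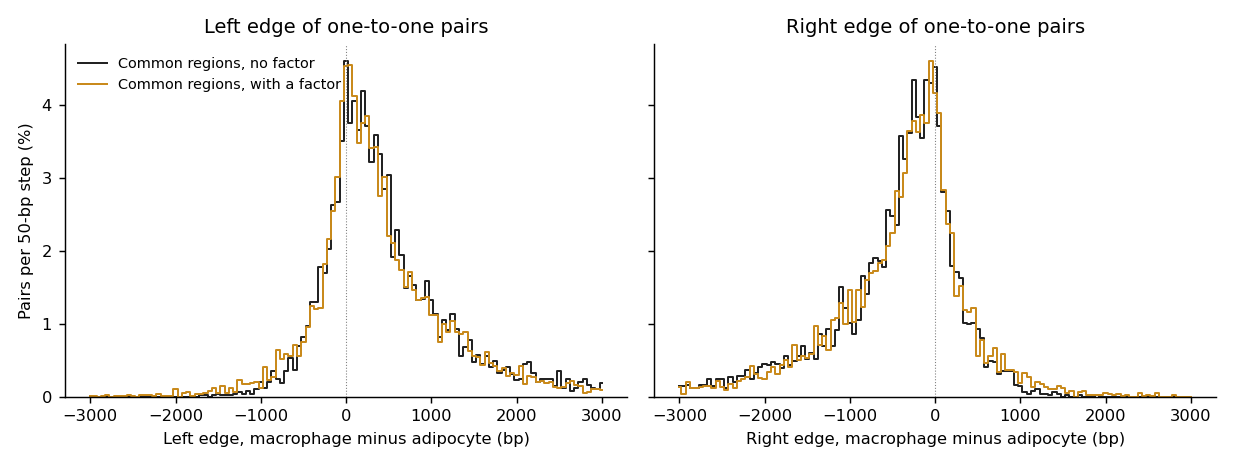
Shift of the left and right edge in one-to-one pairs (bp, macrophage minus adipocyte; y axis, percent of pairs per 50-bp step) at factor-free and factor-bearing common regions, drawn from -3000 to 3000 bp. The curves peak at or next to 0 and lean inward, to the right for the left edge and to the left for the right edge, with medians of 350 and -300 bp at factor-free regions.

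In each pair the adipocyte reach past the macrophage edge was also ranked between the sides, so that 1 side is the smaller by definition. The side with the smaller reach extended the adipocyte region by a median of 50 bp past the macrophage edge, and the side with the larger reach by 700 bp (650 to 700). At factor-bearing pairs these medians were 50 bp and 600 bp (600 to 650). The centres lay a median of 300 bp (300 to 325) apart in factor-free pairs and 300 bp (275 to 300) in factor-bearing ones, and 37.8% of the factor-free pairs had centres within 200 bp, against 38.8% of all pairs. Centres were over 1000 bp apart in 10.4% of factor-free pairs and 9.78% of all pairs. Both edges lay within 200 bp in 592 pairs, 12.2% (11.3 to 13.2), against 11.5% of all pairs, and both were identical in 9, 0.186%, against 0.173% of all pairs. These shares of factor-free pairs lie near those of all pairs.

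Inside a much wider adipocyte region the macrophage region took no fixed place. There were 1446 factor-free pairs in which the macrophage region lay wholly inside an adipocyte region at least 2 times as wide. The place was measured as the share of the free length that lies on the shorter side, which is 0 at an adipocyte edge and 0.5 in the middle. Its median was 0.239, with quartiles of 0.123 and 0.364. Over 5 equal bands from the edge to the middle the pairs were spread as 20.1%, 19.8%, 22.1%, 19.4% and 18.5%. In the 1524 factor-bearing pairs of this kind the median was 0.254.

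Named examples, chosen by a rule stated with the processing, show how far one-to-one pairs differed. On chromosome 9 a macrophage region of 500 bp at 48502101 to 48502600 lay in an adipocyte region of 22750 bp at 48482351 to 48505100, the smallest width ratio of the one-to-one pairs, 0.0220. Over all factor-free common regions, pairs or not, the ratio ran from 0.00931 to 6.45. Next came 600 bp in macrophages against 20000 bp in adipocytes on chromosome 14, from 30051651 to 30052250, and 600 bp against 14550 bp on chromosome 4, from 132320801 to 132321400. The adipocyte regions on chromosomes 9 and 14 held a factor outside the macrophage region. In the opposite direction, a macrophage region of 2650 bp on chromosome 3, from 100616751 to 100619400, met an adipocyte region of 550 bp, a ratio of 4.82. Macrophage regions of 2050 bp on chromosome 15, from 63859951 to 63862000, and of 1950 bp on chromosome 11, from 75376201 to 75378150, each met one of 500 bp. The largest distance between centres in one-to-one pairs, 10300 bp, was on chromosome 7, where the macrophage region at 79615601 to 79617500 lay near the right end of an adipocyte region of 23600 bp. A mirror case on chromosome 6, at 94558151 to 94559050, began 50 bp inside the left end of an adipocyte region of 18100 bp, with centres 8550 bp apart.

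Identical edges were found at regions of ordinary size. The widest were 2350 bp on chromosome 7, from 80560851 to 80563200, 1950 bp on chromosome 14, from 49791501 to 49793450, and 1300 bp on chromosome 19, from 9977951 to 9979250. The macrophage region that met most adipocyte regions, 4, was 3900 bp wide and lay on chromosome 7 from 49112901 to 49116800. Regions of 3300 bp on chromosome 1, from 91410751 to 91414050, and of 1850 bp on the same chromosome, from 36009251 to 36011100, met 3 each.

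The width limit touched few regions. The widest factor-free common regions were 4750 bp on chromosome 15, from 97656001 to 97660750, and 4650 bp on chromosomes 13 and 5. Just outside the limit lay regions of 5050 bp on chromosome 6, 5100 bp on chromosome 11 and 5150 bp on chromosome 12. Of 487 common autosomal regions of 5000 bp or more, 9 had no factor.

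Spacing differed between the cell types more than between the classes. From a factor-free common region to the nearest other macrophage H3K9Ace region the median gap was 3250 bp (3050 to 3450), with quartiles of 850 and 13050 bp. From its adipocyte region to the nearest other adipocyte region the median gap was 850 bp (800 to 900), with quartiles of 300 and 5050 bp. Factor-bearing common regions had medians of 3500 bp (3350 to 3700) in macrophages and 1000 bp (950 to 1050) in adipocytes. The whole lists have the same tilt, with medians of 3850 bp over 36757 autosomal macrophage regions and 900 bp over 50496 autosomal adipocyte regions. The adipocyte list is the longer one, and lists of different length have different gaps at any place. The contrast in gaps between the cell types is therefore a description. A neighbour closer than 1000 bp stood beside 27.2% of factor-free regions in macrophages and 53.1% in adipocytes, near the 27.0% and 51.0% of all common regions. Gaps over 20000 bp were found at 1288 of them in macrophages and 994 in adipocytes, with backgrounds of 17.6% and 14.6%, so the cell types differed mainly at short range. The medians depended on which regions were kept: with regions of at least 1000 bp only they were 12000 bp in macrophages and 5250 bp in adipocytes, and in one-to-one pairs 7150 and 1200 bp. With both regions under 5000 bp and free of factors they were 5350 and 1200 bp, and with regions under 500 bp apart joined, 4775 and 1800 bp.

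Short macrophage gaps were often filled in adipocytes. Of the 1133 factor-free regions whose nearest macrophage neighbour was less than 500 bp away, 894 were joined to it by 1 adipocyte region, 78.9% (76.4 to 81.2). At factor-bearing regions the share was 67.1% (64.8 to 69.4). For gaps of 500 to 999 bp the shares were 61.5% of factor-free (58.2 to 64.8) and 49.3% of factor-bearing regions (46.3 to 52.3). For 1000 to 1999 bp they were 38.9% of factor-free (35.8 to 42.1) and 31.1% of factor-bearing regions (28.6 to 33.8). From 5000 to under 10000 bp they were 3.56% of factor-free (2.52 to 5.01) and 3.07% of factor-bearing regions (2.28 to 4.12), with intervals that overlap. Over all gaps, 2036 factor-free regions, 28.5% (27.4 to 29.5), shared an adipocyte region with their nearest macrophage neighbour, against 23.0% (22.1 to 23.8) of factor-bearing ones and 25.2% of all common regions. Both regions joined in this way can be counted, in the same class or in both classes, while the intervals treat regions as independent. The classes were not compared at equal macrophage width here. Factor-free regions were also split by how many macrophage regions the adipocyte region overlapped, whether or not the nearest neighbour was among them. With 2 or more, the medians were 900 bp in macrophages and 6550 bp in adipocytes, and with 1 they were 1150 bp and 2100 bp. An adipocyte region that overlaps 2 or more macrophage regions has to span the gap between them. Its greater width is thus in part built in, and these medians are a description.

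**Figure D4:**
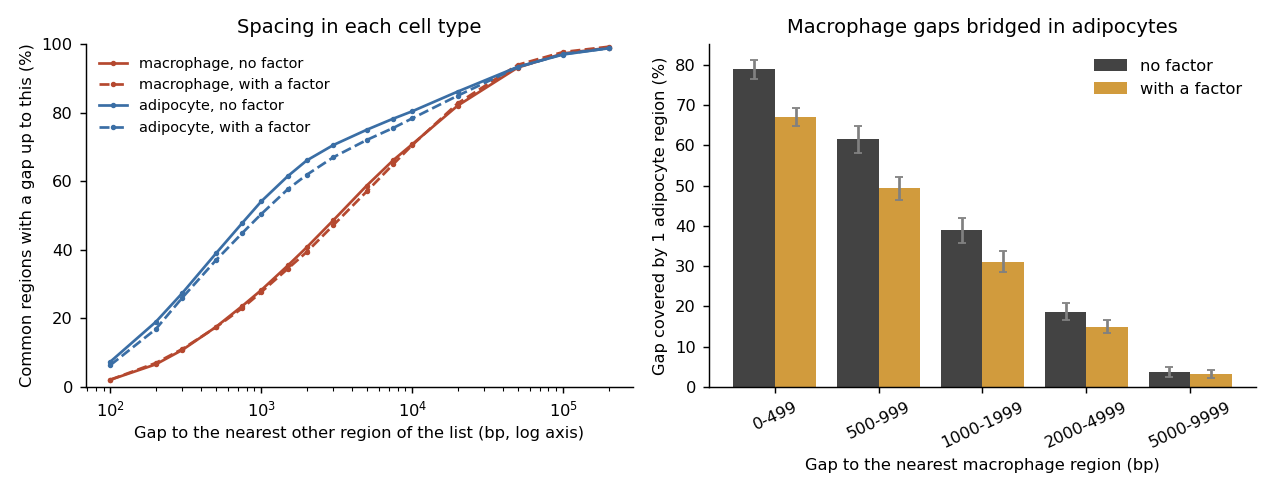
Left, cumulative share (%) of common regions by the gap to the nearest other H3K9Ace region (bp, log axis) of the macrophage list and, from the overlapping region, of the adipocyte list; right, share (%) of common regions joined to their nearest macrophage neighbour by 1 adipocyte region, by the gap (bp), with 95% Wilson intervals. Adipocyte curves lie above macrophage curves up to 20000 bp, and factor-free bars are above factor-bearing ones by intervals that do not overlap for gaps under 5000 bp.

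Neighbours of the factor-free regions were acetylated in adipocytes too more often than elsewhere in the macrophage list. The nearest macrophage neighbour overlapped an adipocyte region at 74.2% of factor-free common regions (73.1 to 75.2) and 67.2% of factor-bearing ones (66.3 to 68.1), against 70.1% of all common regions and 34.5% of factor-free macrophage-only regions (33.6 to 35.4). Neighbours that lie within the same adipocyte region count in this share. A factor lay in the nearest macrophage neighbour at 49.9% of factor-free common regions (48.8 to 51.1), 5166 of the 10139 factor-bearing ones, 51.0%, and 49.8% of factor-free macrophage-only ones (48.9 to 50.7), against 50.5% of all common regions.

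Factor regions were mostly a short way outside, at common and at macrophage-only factor-free regions alike. The nearest region of any of the 4 lists was a median of 2934 bp away (2808 to 3064). For 1762 of the factor-free common regions, 24.6% (23.6 to 25.6), it was under 1000 bp away, for 53.9% it was at 1000 to under 10000 bp, and for 179, 2.50% (2.16 to 2.89), at 50000 bp or more. The 11192 macrophage-only regions without a factor had a median of 3417 bp (3293 to 3556). Their shares at the same distances were 23.7% (22.9 to 24.5), 52.5% and 3.88% (3.54 to 4.25). The shares under 1000 bp and at 1000 to under 10000 bp thus lay near each other in these classes. By list, the median gaps of the common and the macrophage-only factor-free regions were 5633 and 5137 bp to PU.1, 12456 and 10729 bp to C/EBPβ, and 17604 and 16842 bp to macrophage PPARγ. For adipocyte PPARγ they were 24762 bp (23731 to 26018) from common and 57276 bp (55425 to 58981) from macrophage-only regions. Lists of different length have different gaps at any place, so gaps are compared between classes and not between factors.

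Some adipocyte regions reached as far as those factor sites. At 2180 factor-free common regions, 30.5% (29.4 to 31.5), the adipocyte region overlapped a factor region that lies outside the macrophage region. Macrophage PU.1 was in the adipocyte region at 21.0% of factor-free common regions, C/EBPβ at 14.6%, macrophage PPARγ at 10.7% and adipocyte PPARγ at 12.0%. Over all common regions the adipocyte region overlapped a factor region at 68.9%. By list, in the same order, these shares were 50.7%, 37.9%, 25.5% and 21.2%. They include factor regions inside the macrophage region, which the rule bars from the factor-free class, so lower shares there are in part built in. These 2180 had a median width of 900 bp in macrophages and 6350 bp in adipocytes (6100 to 6550), and the other 4974 had 1150 bp and 2150 bp (2100 to 2200). The median gap to the nearest factor region was 944 bp at the 2180 and 5213 bp at the 4974. A wider adipocyte region has more room to meet a factor region, so the adipocyte widths of these subsets are a description.

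The places farthest from any factor lay on chromosomes 10, 5 and 13. On chromosome 10 the region from 72049201 to 72051050, 1850 bp in macrophages and 3500 bp in adipocytes, had no factor region within 1270107 bp. On chromosome 5 the region from 50347051 to 50348050 (1000 and 2950 bp) was 613316 bp from the nearest, and on chromosome 13 the region from 50430001 to 50431200 (1200 and 1800 bp) was 530933 bp away. All 3 were one-to-one pairs.

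Factor-free common regions lay both singly and in runs. Neighbouring ones were a median of 52800 bp apart (49800 to 56600), and 5.45% of these gaps were under 1000 bp. Grouped wherever the gap was under 10000 bp, they formed 5541 runs, of which 4401 held 1 region, and 2753 regions, 38.5%, lay in runs of 2 or more. Runs of other classes were not counted. These shares therefore have no background, and whether they are particular to factor-free regions was not tested. The longest runs held 10 regions. One covered 42000 bp on chromosome 11 from 119766451 to 119808450, with 8050 bp in these macrophage regions and 36150 bp in the 3 adipocyte regions that overlap them. Another covered 51050 bp on chromosome 5 from 115744501 to 115795550, with 9150 bp in the macrophage regions and 24250 bp in 9 adipocyte regions. A run of 9 on chromosome 11 from 3029351 to 3059200 had 10700 bp and 16350 bp. The adipocyte regions that held most factor-free common regions held 5 each. They were 41700 bp wide on chromosome 10 from 79540601 to 79582300, 19450 bp on the same chromosome from 79974451 to 79993900, and 18300 bp on chromosome 11 from 119791001 to 119809300. In all they overlapped 10, 8 and 7 macrophage regions.

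The chromosomes held unequal numbers. Chromosome 19 had the most factor-free common regions for its size in the macrophage list, 28.2 per 100 regions (25.7 to 30.7), followed by chromosome 8 with 460 of 1839 and chromosome 17 with 24.3 (22.4 to 26.3). The lowest values were 12.2 on chromosome 3 (10.8 to 13.8), 12.8 on chromosome 1 (11.5 to 14.2) and 14.0 on chromosome 13 (12.4 to 15.8). Factor-bearing common regions varied less, with 32.2 per 100 on chromosome 19, 27.3 on chromosome 3 and 23.4 on chromosome 1. On chromosomes 19 and 1 the adipocyte list moved the same way, and overlap with that list is part of the rule. Chromosome 19 held 3.50% of macrophage regions narrower than 5000 bp and 4.42% of adipocyte regions of any width. Chromosome 1 held 6.45% and 4.99%. The order did not hold throughout. Chromosome 6 held 5.63% and 8.64%, with 23.1 factor-free common regions per 100, and chromosome 17 held 5.03% and 5.28%, with 24.3. The adipocyte width at factor-free common regions was also highest on chromosome 19, where the medians were 1000 bp in macrophages and 4000 bp in adipocytes. On chromosome 1 these medians were 1100 bp in macrophages and 2500 bp in adipocytes. The adipocyte region was the wider one at 79.9% to 89.3% of factor-free common regions on every autosome.

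**Figure D5:**
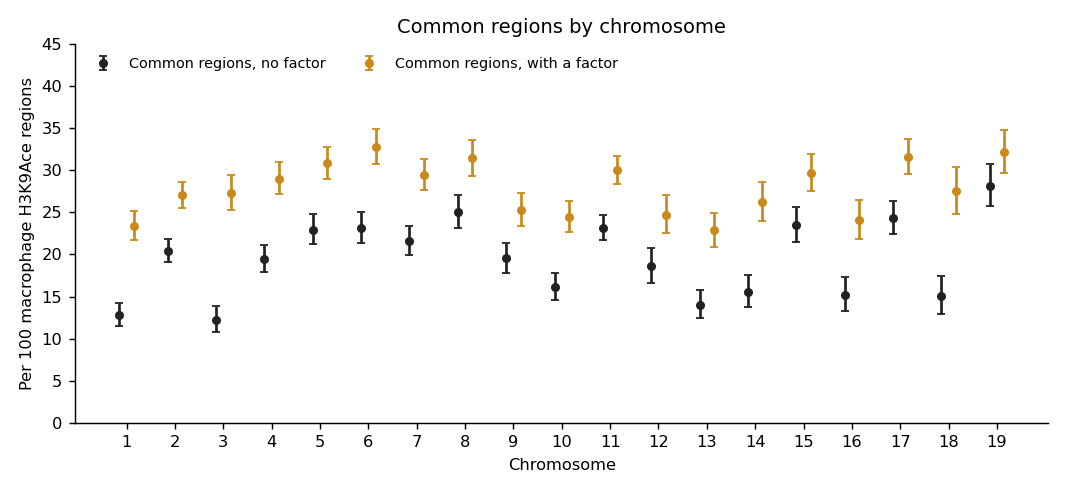
Factor-free and factor-bearing common regions per 100 macrophage H3K9Ace regions narrower than 5000 bp, by autosome, with 95% Wilson intervals. Factor-free values run from 12.2 on chromosome 3 to 28.2 on chromosome 19, and factor-bearing values lie above them on each chromosome.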

How the data were processed

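The deposited files are the authors' lists of called regions in mouse build mm8, and no count or signal value of them was used here. Per the labels' protocols, ELAND placed reads of 36 bp with at most 2 mismatches, reads without a unique best match were dropped, and 2 runs were joined for macrophage PPARγ. The sources used here give no aligner version, peak caller settings, control or depth, and the H3K9Ace lists carry no score. Positions in every list were read as starts counted from 0, and H3K9Ace positions are printed counted from 1. The 20 repeated rows of the adipocyte H3K9Ace list were counted once. Groups were taken from the sample titles, since the description field names PPARγ for all 6 libraries.

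Overlaps, widths and edge-to-edge gaps were computed with Python 3.11.15, numpy 2.4.6 and pandas 2.3.3, and tested on simulated lists with known shifts. Where several adipocyte regions overlapped a macrophage region, that of largest overlap was used. Intervals are 95% Wilson (shares) or order-statistic (medians) intervals and treat regions as independent. No test over samples was possible with 1 library a group. Named regions are the 3 most extreme by width ratio and centre distance among one-to-one pairs, and, among all, by adipocyte regions met, factor-free regions held, distance from factors, run length and width, and the 3 widest with identical edges, chromosome 18 left out. Regions and comparisons were chosen with earlier results of these data known. Alternatives changed the overlap, factor lists, factor distance, width limits, joining, chromosomes and repeated rows; restricting to one-to-one pairs and exchanging the lists were added after seeing the data.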

Additional observations from a re-analysis of the deposited data

How the results depend on the processing

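The width difference stayed negative under all 12 alternatives; the other 8 values cannot be negative. Of 108 comparisons, 63 stayed within the main value's interval (within 1.5 times, for the number of regions) and 45 moved. With regions of at least 1000 bp only, 3777 factor-free common regions were left, with medians of 1650 bp in macrophages and 3300 bp in adipocytes, wider adipocyte regions at 90.3%, 79.3% one-to-one pairs, edge shifts of 500 bp, and gaps of 12000 bp in macrophages and 5250 bp in adipocytes. With width limit and factor rule on both sides, 4497 were left, with adipocyte widths of 1950 bp, a difference of -550 bp, 75.5% wider, 88.0% one-to-one, shifts of 350 bp and gaps of 5350 and 1200 bp. With regions under 500 bp apart joined, adipocyte widths were 3500 bp, the difference -1850 bp, 86.7% wider, 70.7% one-to-one, shifts 500 bp and gaps 4775 and 1800 bp. An overlap of 50% of the shorter region gave 3050 bp, -1450 bp, 85.6% and 71.5% for adipocyte width, difference, wider share and one-to-one share. No factor within 1000 bp gave 71.3% one-to-one and gaps of 4225 and 950 bp. Joining all overlapping adipocyte regions gave 86.0% wider. One-to-one pairs alone gave 2150 bp, -750 bp, 79.9%, 100% by construction, and gaps of 7150 and 1200 bp. From the adipocyte list the values were 1250 bp in macrophages, 1550 bp in adipocytes, -350 bp, 64.0%, 81.2%, shifts of 350 bp and gaps of 4750 and 1000 bp. The final PPARγ lists, no width limit, chromosomes X and Y and the repeated rows moved none of the 9 values. Apart from what each alternative does by construction, the cause of a move was not tested. Because depth is unknown, an absent region cannot be told apart from one below the authors' threshold. No paired analysis was possible because each group has 1 library.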
